A study of Mus musculus with 7 samples.

Results

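The cell cycle and DNA replication genes examined here are 44 genes, listed by symbol, that encode cyclins and their kinases, inhibitors of those kinases, the replication machinery and the proteins of mitosis. All 44 were among the 23329 gene symbols of the count table, and 42 passed the low-count filter, which left 12480 genes for testing. RNA sequencing was done on Beta-TC6, a mouse line that came from a beta-cell tumour and secretes insulin. The wild-type cells received either IL1B (interleukin-1 beta, an inflammatory cytokine, 3 libraries) or vehicle (4 libraries), and both groups had been given a forskolin pulse (1 h, 10 µM) to synchronise them. Whether the pulse brought the cells to a common cell cycle phase was not tested. As background, beta-TC lines come from mice in which an insulin promoter drives the SV40 large T antigen, a protein that binds RB and p53, so both groups are cycling tumour cells of 1 line. For IL1B, no dose, duration or time of harvest is given in the sources that were used. The labels do not say whether libraries came from separate cultures. The p-values here therefore describe the spread among these 7 libraries, which may be technical.

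In the cell cycle, D-type cyclins with the kinases CDK4 and CDK6, and then cyclin E with CDK2, phosphorylate RB and release E2F factors, which switch on the genes of DNA replication. Genes of G2 and mitosis follow, many of them through a promoter element called the cell cycle homology region (CHR), which the MuvB complex binds together with B-MYB or FOXM1. CDK inhibitors of the INK4 family (Cdkn2a to Cdkn2d) hold back CDK4 and CDK6, and those of the CIP/KIP family (Cdkn1a to Cdkn1c) act on several CDKs. In adult pancreas, beta cells divide rarely, and Cdk4 and Ccnd2 are known to be needed for their postnatal growth in mice.

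Library totals ran from 5335607 to 7513934 counts in vehicle and from 6007723 to 6969745 in IL1B, so 3 counts, the limit that a count of 0 allows, came to 0.399 to 0.562 CPM (counting error only). CPM is the counts-per-million scale, here over the counts in tested genes, with libraries brought to one level by the TMM method, which aligns the bulk of genes. Of 6 beta-cell marker genes all were measured, with summed levels of 31190 to 36490 CPM in vehicle and 34660 to 35820 in IL1B. One of them passed the test given further on, Pdx1, a beta-cell transcription factor, which fell from 354 ± 6.40 to 239.5 ± 7.96 CPM (log2 fold change -0.56, edgeR adjusted p = 3e-07). Its part in the results on cell cycle genes was not tested. Markers of other islet endocrine cells summed to 567 to 629 CPM in vehicle and 530 to 584 in IL1B, whose part in the results was not tested. Markers of leukocytes, stroma and endothelium summed to 1.30 to 5.82 CPM over all libraries, and the exocrine markers Cpa1 and Prss1 were at 0. In such bulk libraries, fewer cells in a phase and less RNA per cell cannot be told apart.

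The promoters of these genes were searched for elements of their phase, and a few stretches are shown because these elements are what members of a phase share in sequence. Windows of 300 bases, 250 before to 50 after the RefSeq start on GRCm38.p6, were matched to 35 of the 44 genes and searched on both strands. The E2F forms TTTCCCGC, TTTGGCGC, TTCCCGCC and TTGGCGCC, which can overlap each other and a CCAAT box, were in 7 of 11 S phase genes with a window and in 2 of 15 G2/M genes. Among all 27025 symbols with a window 4.34% held at least 1 of these forms, and among tested genes 8.34%. The CHR, searched as TTTGAA, was in 11 of 15 G2/M genes and in 1 of 11 S phase genes, against 20.2% of all symbols and 13.8% of tested genes. The box CCAAT was in 14 of 15 G2/M genes and 8 of 11 S phase genes, against 41.1% and 44.2%. A match is only a match of letters, and symbols with several starts have more than 1 window. The 150 bases before the start are printed 5′ to 3′ from the gene's own strand, with every match in capitals:
Mcm5 (chr8:75109359-75109508, plus strand): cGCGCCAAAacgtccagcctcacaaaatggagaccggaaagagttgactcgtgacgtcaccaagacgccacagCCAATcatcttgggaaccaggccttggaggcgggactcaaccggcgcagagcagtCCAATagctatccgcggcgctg
Mcm6 (chr1:128359706-128359855, minus strand): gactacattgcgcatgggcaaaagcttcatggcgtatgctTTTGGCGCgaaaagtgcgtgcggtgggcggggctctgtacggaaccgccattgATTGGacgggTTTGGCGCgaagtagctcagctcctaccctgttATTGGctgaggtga
Cdk1 (chr10:69352913-69353062, minus strand): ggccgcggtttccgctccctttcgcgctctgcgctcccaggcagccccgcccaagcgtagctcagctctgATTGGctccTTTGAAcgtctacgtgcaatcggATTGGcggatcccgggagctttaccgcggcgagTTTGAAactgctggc
Cdc20 (chr4:118437344-118437493, minus strand): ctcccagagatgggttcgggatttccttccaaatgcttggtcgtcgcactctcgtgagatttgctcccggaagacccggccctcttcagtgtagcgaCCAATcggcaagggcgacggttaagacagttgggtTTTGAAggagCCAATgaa
Top2a (chr11:99024190-99024339, minus strand): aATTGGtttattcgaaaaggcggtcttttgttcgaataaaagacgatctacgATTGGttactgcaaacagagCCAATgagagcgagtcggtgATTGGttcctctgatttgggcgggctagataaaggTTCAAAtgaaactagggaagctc
Bub1 (chr2:127831860-127832009, minus strand): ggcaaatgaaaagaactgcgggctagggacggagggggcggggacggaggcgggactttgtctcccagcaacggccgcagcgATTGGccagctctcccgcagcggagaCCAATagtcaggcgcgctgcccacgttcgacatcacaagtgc
Birc5 (chr11:117849087-117849236, plus strand): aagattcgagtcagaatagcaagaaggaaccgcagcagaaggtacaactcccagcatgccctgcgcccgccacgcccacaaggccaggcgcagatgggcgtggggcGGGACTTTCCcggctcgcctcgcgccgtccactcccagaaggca

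Mcm5 and Mcm6, which encode subunits of the replicative helicase, show TTTGGCGC, on the opposite strand in Mcm5 and as a pair in Mcm6, and CCAAT boxes. Cdk1 (the mitotic kinase), Cdc20 (an activator of the anaphase-promoting complex) and Top2a (topoisomerase II alpha) show CHR letters on either strand and CCAAT boxes. The stretch of Bub1, a spindle checkpoint kinase, shows 2 CCAAT boxes and no CHR. An NF-kB form (GGG, any 2 bases, then TTTCC) was in 1 of the 35 genes, Birc5, which encodes survivin. The share was 1.89% of all symbols and 2.04% of tested genes. An AP-1 form, TGANTCA, was in none of the 35, against 8.97% of all symbols and 5.74% of tested genes. Birc5 had a log2 fold change of 0.10 (95% interval -0.04 to 0.23, edgeR adjusted p = 0.414).

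Mean vehicle levels of the tested genes ran from 26.4 (Ttk) to 980 (Top2a) CPM. Levels of different genes are compared per kilobase of annotated exon. Per kilobase, the sliding clamp gene Pcna was the highest of the 44, at 299.5 ± 16.7 CPM (SD, n = 4) in vehicle. Cdkn2c (137 ± 5.67), Top2a (109 ± 6.23), Cdc20 (108 ± 4.48), Mcm5 (103 ± 2.75) and Rrm2 (103 ± 2.54), the small subunit of ribonucleotide reductase, came next on that scale. The 6 Mcm2 to Mcm7 genes, whose products form 1 hexamer, ran from 43.7 (Mcm2) to 103 (Mcm5) CPM per kilobase. Together the 42 tested genes took 0.912% to 0.984% of all counts of a library. The counts of Pcna, Mcm7 and Cdk4 are uncertain in part, since other transcripts share 51.4% (Pcna-ps2), 72.8% (Gm5487) and 31.2% (Tspan31) of their longest transcripts. The lowest tested level per kilobase was that of Ccnd3, 4.36 ± 0.362, followed by the checkpoint kinase gene Ttk, 5.36 ± 0.405.

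The kinases of D-type cyclins were represented almost wholly by Cdk4, at 86.0 ± 2.68 CPM per kilobase in vehicle. Cdk6, its close relative, had 12 counts in vehicle (4 libraries together) and 11 in IL1B (3 together) and did not pass the filter. Of the D-type cyclins, Ccnd2 stood at 10.6 ± 0.594 and Ccnd3 at 4.36 ± 0.362 CPM per kilobase. Ccnd1 did not pass the filter, with 30 vehicle and 25 IL1B counts, or 0.254 and 0.282 CPM per kilobase over the pooled libraries. Part of the exons of Ccnd1 (23.4%) and Cdk4 (19.7%) overlap a gene on the opposite strand, and whether the counts used strand is unstated in the sources used.

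**Figure D1:**
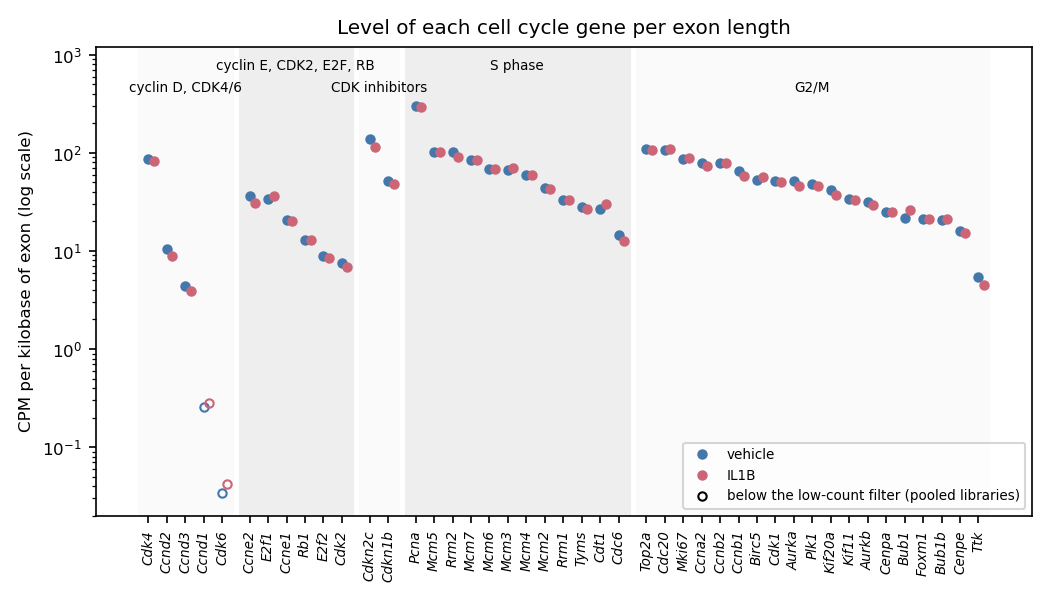
Level of each of the 44 genes per kilobase of annotated exon (log axis), as the mean of the vehicle (blue) or IL1B (red) libraries; open circles are Ccnd1 and Cdk6, which did not pass the filter and are given over pooled libraries. Pcna is highest at 299.5 CPM per kilobase in vehicle, and Cdk4 at 86.0 stands far above Cdk6 at 0.0343.

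With IL1B, most of these genes differed little from vehicle, and 4 passed the threshold: Ccnd2, Ccne2 and Cdkn2c fell and Bub1 rose, each by 1.18-fold to 1.20-fold. The test was edgeR's quasi-likelihood F test over all tested genes with Benjamini-Hochberg adjustment and a threshold of 0.05. Thus 1 of 42 genes rose (2.38%) and 3 fell (7.14%), against 7.76% of all tested genes called higher and 3.25% called lower. Leaving out 1 library gave 1 (without IL1B library 3) to 5 (without IL1B library 1) genes that fell, and no gene rose when vehicle 3, vehicle 4, IL1B 1 or IL1B 3 was the one left out. At an unadjusted p under 0.05 there were 12 of the 42 (28.6%), against 22.6% of all tested genes. Of these 2 were higher and 10 lower, where 13% of all tested genes were higher and 9.62% lower at that p. For all 42 genes the 95% interval of the log2 fold change lay within 1.5-fold in either direction. The same held for 9585 of the 12480 tested genes. Median vehicle levels were 176 CPM over the 42 genes and 34.6 CPM over all tested genes. Fold changes of the 42 genes ran from -0.27 to 0.25 on the log2 scale.

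Differences lay more often below 0 than above: 34 of 42 log2 fold changes were negative (81.0%), against 52.2% of all tested genes. The median was -0.036 over the 42 genes and -0.0087 over all tested genes. By groups of libraries, all IL1B values lay below all vehicle values in 8 of the 42 genes (19.0%, background 8.83%) and above them in 2 (4.76%, background 12.1%). Total-count scaling, which corrects for library totals alone, moved every value down by about the same amount, as the median over all tested genes became -0.041. With it 5 of the 42 fell, the same 3 with Cdc6 and Rrm2 (11.9%, background 4.46%), and 1 rose, Bub1 (background 6.76%). All IL1B values then lay below all vehicle values in 13 of the 42 genes (background 11.8%) and above them in 2 (background 10.1%). Negative log2 fold changes then made up 83.3% of the 42, against 60.2% of all tested genes. All other values here are with TMM scaling unless total-count scaling is named.

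**Figure D2:**
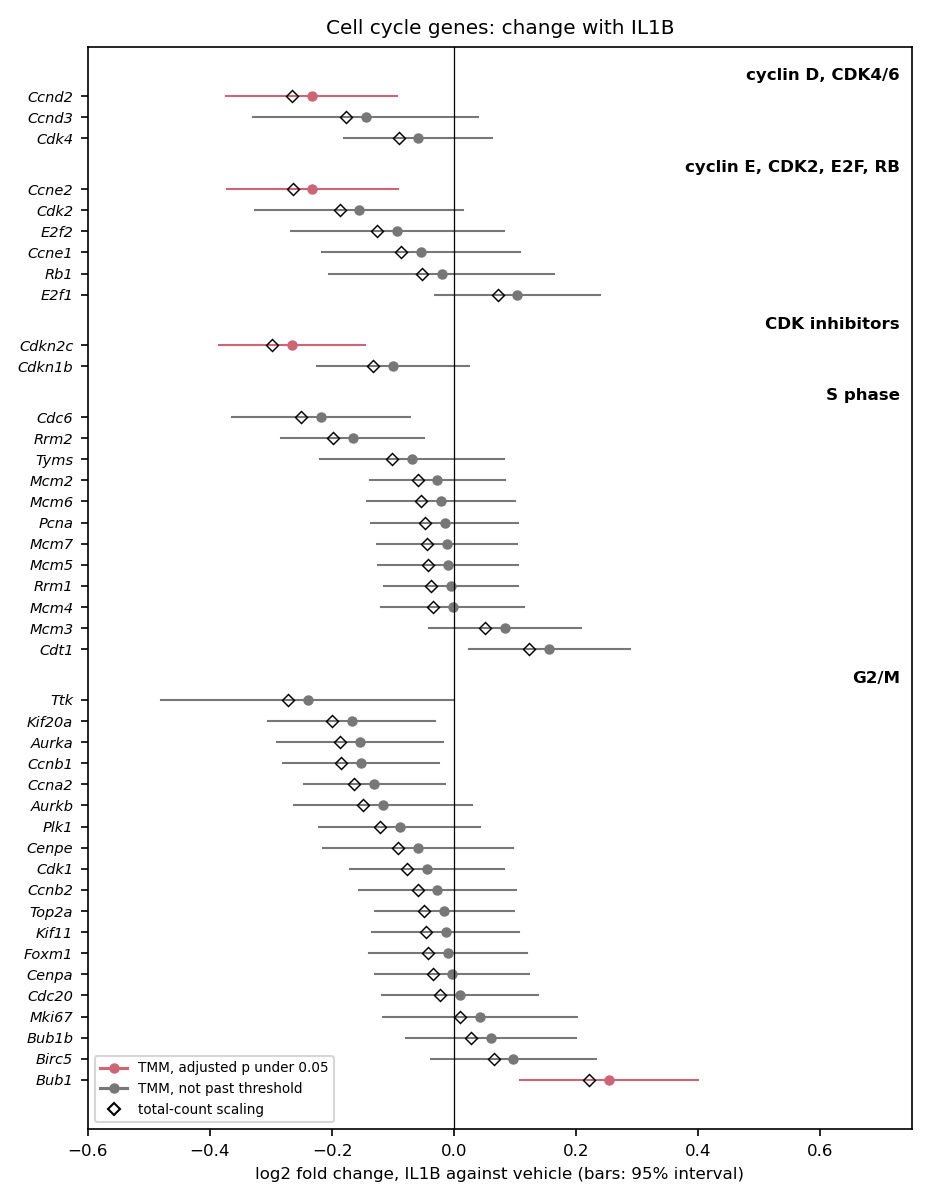
Log2 fold change of IL1B against vehicle for the 42 tested genes by class, with filled points and 95% intervals for TMM scaling and open diamonds for total-count scaling. Ccnd2, Ccne2 and Cdkn2c (below 0) and Bub1 (above 0) are in red as past the threshold, and the diamonds lie slightly left of the points throughout.

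Among D-type cyclins and their kinases, Ccnd2 fell. Ccnd2, on chromosome 6 (127125162 to 127152193, GRCm38), encodes cyclin D2. It stood at 101, 91.1, 104 and 101 CPM in vehicle libraries 1 to 4 and at 83.1, 85.9 and 84.3 in the IL1B libraries. The groups did not overlap, and the second vehicle library was the lowest of its group. The decrease was 1.18-fold (log2 fold change -0.23 with an SE of 0.07, edgeR adjusted p = 0.0272). The call did not hold when vehicle library 1 (adjusted p = 0.0777), 3 (0.0943) or 4 (0.0755) was left out, nor when IL1B library 1 (0.0840) or 3 (0.0981) was. It held with the second library of both groups left out together (0.000962).

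Ccnd3 stood at 34.2, 37.6, 39.3 and 41.8 CPM in vehicle and 34.4, 34.9 and 33.9 in IL1B. The first vehicle library lay within the IL1B range, and the difference did not pass (log2 fold change -0.15, 95% interval -0.33 to 0.04, edgeR adjusted p = 0.359). Cdk4, the partner kinase, ranged from 271 to 292 CPM in vehicle and from 253 to 283 in IL1B, with overlap (log2 fold change -0.06, 95% interval -0.18 to 0.06, adjusted p = 0.614).

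At the next step Ccne2 fell, and the other 5 genes of the class did not pass. Ccne2, on chromosome 4 (11191351 to 11204779), encodes cyclin E2, which activates CDK2 at the entry to S phase. Vehicle libraries held 132, 132, 121 and 122 CPM and IL1B libraries 114, 99.7 and 110. All IL1B values lay below all vehicle values, with the second IL1B library lowest. The decrease was 1.18-fold (log2 fold change -0.23 with an SE of 0.07, edgeR adjusted p = 0.0275). It was lost without vehicle library 1 (adjusted p = 0.0971), IL1B library 2 (0.140) or 3 (0.0800), and with the second library of both groups left out together (0.0542). Exons of Ints8 on the opposite strand overlap 17.4% of its exon bases.

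Its paralog Ccne1 had a log2 fold change of -0.05 (95% interval -0.22 to 0.11). Cdk2 ranged from 43.7 to 50.6 CPM in vehicle and from 40.8 to 43.9 in IL1B, with 1 library of each group in the overlap (log2 fold change -0.16, 95% interval -0.33 to 0.01, edgeR adjusted p = 0.273). E2f1, an activating E2F, was nearly constant in vehicle at 105.9 to 106.5 CPM and stood at 106, 123 and 113 in IL1B (log2 fold change 0.10, 95% interval -0.03 to 0.24, adjusted p = 0.375). E2f2 ranged from 40.2 to 46.6 CPM in vehicle and from 38.9 to 43.7 in IL1B (log2 fold change -0.09, adjusted p = 0.570). Rb1, the retinoblastoma gene, had a log2 fold change of -0.02 (95% interval -0.20 to 0.16).

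Of the CDK inhibitors among the 44 genes, Cdkn2c fell and Cdkn1b did not pass. Cdkn2c, on chromosome 4 (109660876 to 109667189), encodes p18INK4c, an inhibitor of CDK4 and CDK6. It stood at 353, 383, 360 and 381 CPM in vehicle and 310, 292 and 319 in IL1B. Every IL1B library was below every vehicle library. The decrease was 1.20-fold (log2 fold change -0.27 with an SE of 0.06, edgeR adjusted p = 0.00334). Of the 4 calls it alone passed in all 16 alternatives run, with adjusted p from 0.000403 to 0.0354. Cdkn1b, which encodes p27KIP1, ranged from 232 to 240 CPM in vehicle and stood at 233, 205 and 227 in IL1B (log2 fold change -0.10, 95% interval -0.22 to 0.02, adjusted p = 0.346).

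**Figure D3:**
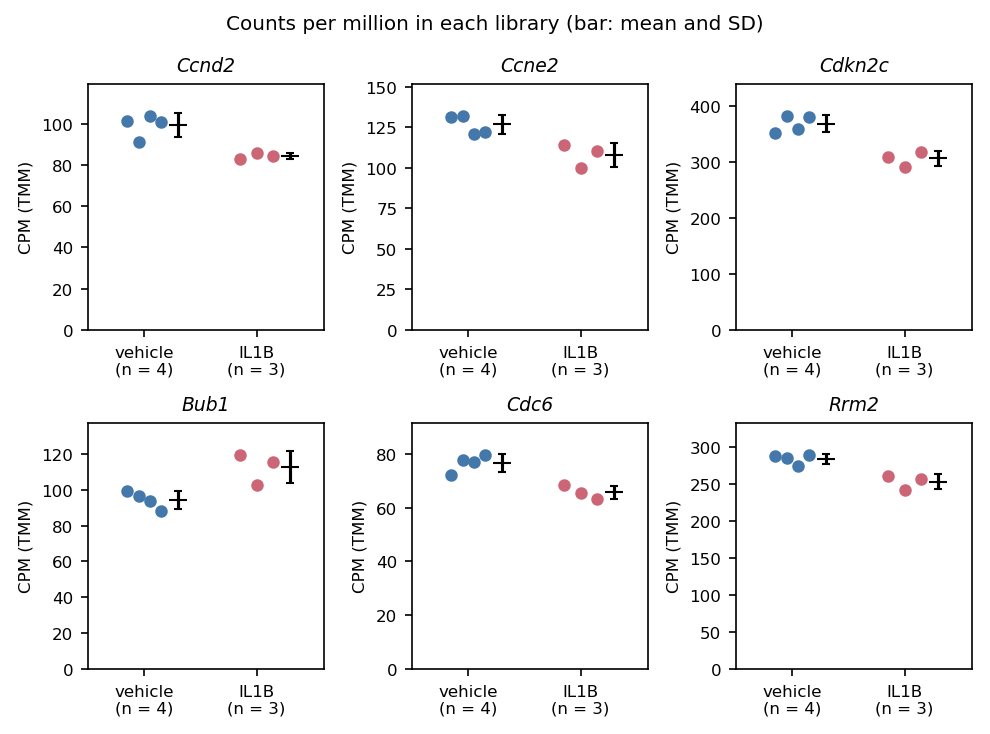
CPM in each library for the 4 genes past the threshold with TMM scaling (Ccnd2, Ccne2, Cdkn2c, Bub1) and for the 2 more that passed with total-count scaling (Cdc6, Rrm2), with the axis from 0 and bars for mean and SD. In each panel the 4 vehicle points and the 3 IL1B points do not overlap, and the shift is small beside the level, for example from 369 to 307 CPM for Cdkn2c.

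None of the 12 S phase genes passed over all libraries with edgeR and TMM scaling, nor with DESeq2 or limma-voom. At an unadjusted edgeR p under 0.05 there were 3 (25%, against 22.6% of all tested genes), Cdc6 and Rrm2 lower and Cdt1 higher. The median log2 fold change was -0.014 (0.018 without IL1B library 3). The helicase genes Mcm2, Mcm4, Mcm5, Mcm6 and Mcm7 lay within 0.03 of 0 on the log2 scale, with 95% intervals reaching from -0.14 to 0.11. Similar values were found for Pcna (-0.016) and for Rrm1 (-0.0051), the large subunit of ribonucleotide reductase. Mcm3 ranged from 236 to 262 CPM in vehicle and from 254 to 280 in IL1B (log2 fold change 0.08, 95% interval -0.04 to 0.21). Tyms, which encodes thymidylate synthase, had a log2 fold change of -0.07 (95% interval -0.22 to 0.08).

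Cdc6 and Cdt1 load the helicase onto origins, and their values lay on opposite sides of 0. Cdc6 stood at 72.0, 77.7, 76.9 and 79.7 CPM in vehicle and 68.3, 65.3 and 63.3 in IL1B, without overlap. Its log2 fold change was -0.22 with an SE of 0.07, and its edgeR adjusted p was 0.0509 with TMM and 0.0237 with total-count scaling. Cdc6 passed in 4 of the 16 alternatives run and not in 12. Besides total-count scaling these were RLE (0.049) and upper-quartile scaling (0.0284), and TMM without vehicle library 1 (0.0485). Cdt1 stood at 82.1, 86.1, 82.5 and 85.4 CPM in vehicle and 92.1, 93.1 and 95.7 in IL1B, also without overlap. Its log2 fold change was 0.16 with an SE of 0.06 (edgeR adjusted p = 0.137 with TMM, 0.243 with total-count scaling). Rrm2 stood at 288, 286, 275 and 290 CPM in vehicle and 261, 243 and 258 in IL1B, again without overlap (log2 fold change -0.17 with an SE of 0.06). Its adjusted p was 0.0641 with TMM and 0.0231 with total-count scaling. Rrm2 likewise passed in 4 of the 16 alternatives and not in 12.

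Of the 19 G2/M genes 1 rose, Bub1, and none fell by edgeR, DESeq2 or limma-voom over all libraries. By edgeR with TMM the share that rose was 5.26%, against 7.76% of all tested genes. At an unadjusted edgeR p under 0.05, 5 of the 19 were lower, against 9.62% of all tested genes. Bub1, on chromosome 2 (127801122 to 127831865), encodes a kinase of the spindle assembly checkpoint. It stood at 99.5, 96.8, 93.6 and 88.0 CPM in vehicle and 120, 103 and 116 in IL1B. The groups did not overlap, and the second IL1B library came closest to vehicle. The increase was 1.19-fold (log2 fold change 0.25 with an SE of 0.07, edgeR adjusted p = 0.0213). Leaving out vehicle library 3 (adjusted p = 0.0586) or 4 (0.0842), or IL1B library 1 (0.120) or 3 (0.110), ended this call. Bub1 passed with the second library of both groups left out together (0.000195).

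The other checkpoint genes gave values on either side of 0: Bub1b 0.06 (95% interval -0.08 to 0.20) and Ttk -0.24 (95% interval -0.48 to -0.00060, edgeR adjusted p = 0.219) on the log2 scale. Of the mitotic cyclin genes, Ccnb1 and Ccna2 were slightly lower without passing. Ccnb1, which encodes cyclin B1, stood at 285, 275, 276 and 263 CPM in vehicle and 269, 236 and 237 in IL1B. The first IL1B library lay inside the vehicle range (log2 fold change -0.15 with an SE of 0.06, adjusted p = 0.133). The 3 pseudogene transcripts, each sharing 51.7% to 51.9% of the longest Ccnb1 transcript, make its count uncertain. Ccna2 (log2 fold change -0.13, adjusted p = 0.158) did not overlap between groups, and Ccnb2 (-0.03, adjusted p = 0.850) did. Exosc9 on the opposite strand overlaps 12.5% of the exon bases of Ccna2.

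Aurora kinase A, encoded by Aurka, stood at 128, 137, 124 and 128 CPM in vehicle and 109, 123 and 117 in IL1B. The groups did not overlap, and the difference did not pass (log2 fold change -0.15 with an SE of 0.06, edgeR adjusted p = 0.155). Kif20a, a kinesin of the central spindle, stood at 185, 188, 180 and 179 CPM in vehicle and 181, 155 and 153 in IL1B (log2 fold change -0.17 with an SE of 0.07, adjusted p = 0.122). Its first IL1B library lay inside the vehicle range. Without that library Kif20a (adjusted p = 0.0237) and Ccnb1 (0.0450) passed as lower, with Ttk, Ccne2 and Cdkn2c. Aurka passed as lower (0.0348) when the second library of both groups was left out. Exons of Cdc23 on the opposite strand overlap 29.3% of the exon bases of Kif20a.

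The remaining G2/M genes lay closer to 0. Cdk1, Foxm1, Cdc20, Cenpa, Kif11 and Top2a had log2 fold changes between -0.04 and 0.01, with 95% intervals from -0.17 to 0.14, and that of Cdc20 turned from 0.0094 to -0.023 with total-count scaling. Plk1 (-0.09), Aurkb (-0.12) and Cenpe (-0.06) were lower without passing, and Mki67, the source of the proliferation antigen Ki-67, had 0.04 (95% interval -0.12 to 0.20). Vehicle library 2 was the lowest of its group for the long transcripts of Mki67 (736 CPM, others 880 to 955), Top2a (911, others 970 to 1047) and Cenpe (120, others 136 to 154). Across all tested genes, the deviation of that library from the vehicle mean went with exon length (Spearman rho -0.50, where vehicle libraries 1, 3 and 4 had 0.20 to 0.28). Over the 42 genes the same rho was -0.48, against 0.11 to 0.34; its part in these results was not tested. Without vehicle library 2 the same 4 genes passed, and Rrm2 with them as lower.

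**Figure D4:**
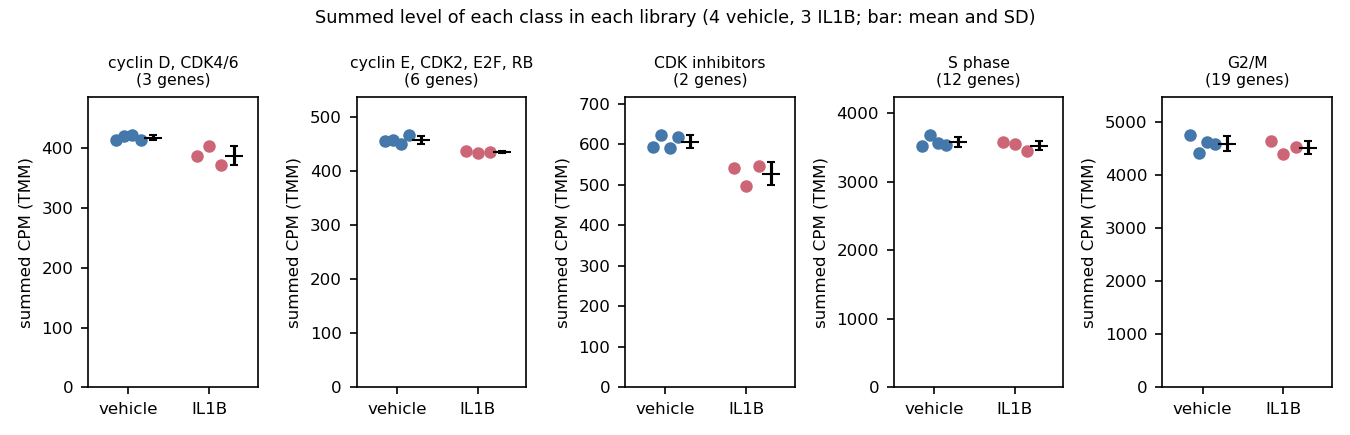
Summed CPM of the tested genes of each class in each library (4 vehicle, 3 IL1B), axis from 0, with mean and SD. The S phase sum is 3573 with vehicle and 3521 with IL1B and the G2/M sum 4588 and 4514, with overlapping libraries, while the sum of the pair of CDK inhibitors goes from 606 to 528.

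Summed over classes, the S phase genes took 3573 ± 69.5 CPM in vehicle (n = 4) and 3521 ± 63.7 in IL1B (n = 3), and the G2/M genes 4588 ± 139 and 4514 ± 121. The ranges of the groups overlapped in both classes. IL1B differed from vehicle by -1.45% (S phase) and -1.63% (G2/M) with TMM and by -3.64% and -3.83% with total-count scaling. In the cyclin D class the sums were 417 ± 4.28 and 387 ± 16.2, in the cyclin E class 458 ± 6.67 and 436 ± 1.68, and for Cdkn1b with Cdkn2c 606 ± 16.2 and 528 ± 27.6. In these 3 classes every IL1B library lay below every vehicle library. The sum over all 42 genes stood at 9730, 9584, 9633 and 9624 CPM in vehicle and 9571, 9265 and 9323 in IL1B, also without overlap, a difference of -2.66% with TMM and -4.83% with total-count scaling. A sum follows its most abundant genes, and the classes were given no test.

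Other genes of the same pathways were taken as 108 genes in 5 lists. Of 107 tested, 8 rose (7.48%) and 4 fell (3.74%), close to the shares of all tested genes. All 4 that fell were in the list of further G2/M genes. Their log2 fold changes were negative in 57.0% (65.4% with total-count scaling), against 52.2% (60.2%) of all tested genes. The largest fold change among the 107 was in a CDK inhibitor. Cdkn2b, which encodes p15INK4b, stood at 18.3, 22.1, 23.5 and 17.5 CPM in vehicle and 47.5, 48.7 and 52.8 in IL1B. The IL1B values were all far above the vehicle range, a 2.44-fold increase (log2 fold change 1.29 with an SE of 0.10, edgeR adjusted p = 1.29e-08). Cdkn1a, which encodes p21CIP1, rose from 79.98 ± 4.14 to 117 ± 3.61 CPM (1.46-fold, log2 fold change 0.55 with an SE of 0.07, adjusted p = 4.76e-06).

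Thus 2 of the 4 other CDK inhibitors tested rose (50%, against 7.76% of all tested genes), while Cdkn2c among the 44 genes fell. Cdkn2a, whose locus gives p16INK4a and ARF, had a log2 fold change of 0.24 with an SE of 0.08 (edgeR adjusted p = 0.0613), with vehicle library 2, at 228 CPM, inside the IL1B range of 216 to 251. Cdkn2d, which encodes p19INK4d, had -0.05 (95% interval -0.18 to 0.08), and Cdkn1c did not pass the filter, with 27 vehicle and 23 IL1B counts. Per kilobase, Cdkn2c (137 CPM in vehicle, 114 in IL1B) stayed well above Cdkn2b (14.6 and 35.7).

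**Figure D5:**
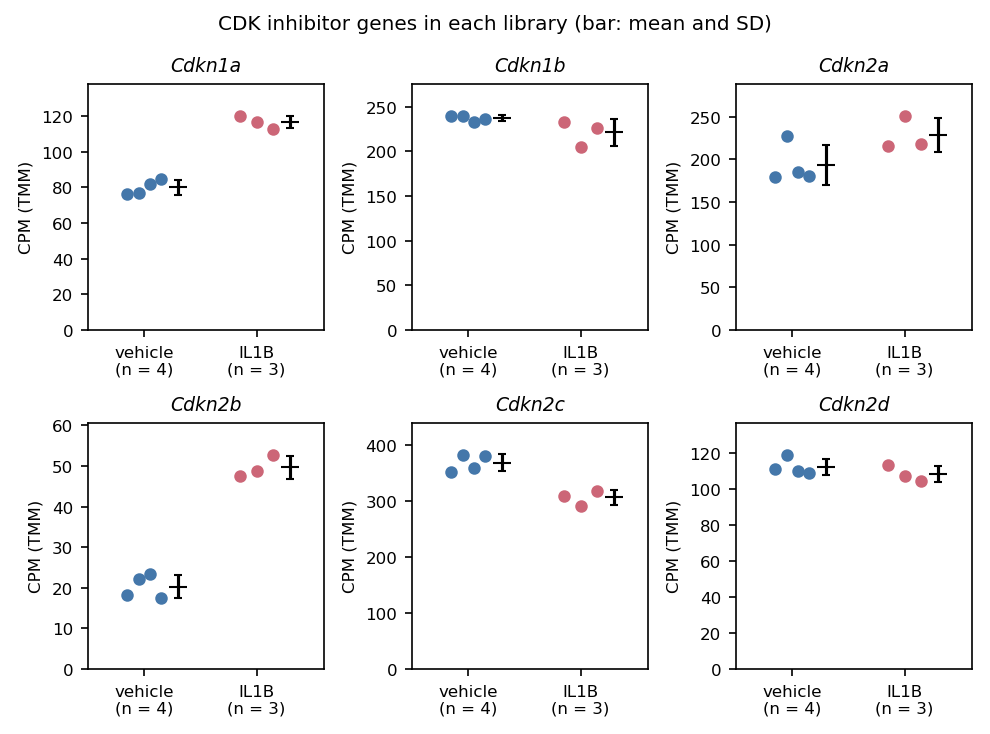
CPM in each library for the 6 CDK inhibitor genes that passed the filter, with the axis from 0 and bars for mean and SD. Cdkn2b goes from 20.3 to 49.7 CPM and Cdkn1a from 79.98 to 117, Cdkn2c from 369 to 307, and the groups overlap in the panels of Cdkn1b, Cdkn2a and Cdkn2d.

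Of 39 further S phase genes 1 passed, as higher (2.56%, background 7.76%), and the median log2 fold change was -0.012. It was Uhrf1, which recruits the maintenance DNA methyltransferase to newly replicated DNA. It stood at 144, 133, 143 and 148 CPM in vehicle and 192, 187 and 183 in IL1B, with a wide gap between groups (1.32-fold, log2 fold change 0.40 with an SE of 0.06, edgeR adjusted p = 6.5e-05). The transcript of Gm5648 shares 44.3% of its longest transcript.

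Of 40 further G2/M genes 3 rose (7.5%) and 4 fell (10%), against 7.76% and 3.25% of all tested genes. The risers were Kif23, the kinesin of centralspindlin, from 65.8 ± 3.55 to 89.0 ± 5.60 CPM (1.35-fold, edgeR adjusted p = 2.48e-04), Prc1, which bundles microtubules of the central spindle, 1.24-fold (adjusted p = 7.97e-04), and Gas2l3, a cytoskeletal linker, 1.30-fold (adjusted p = 0.00376). The 4 that fell, named after their values were seen, were Anln (anillin, 1.18-fold), Ckap2 (1.18-fold), G2e3 (1.19-fold) and Gtse1 (1.26-fold), with adjusted p from 0.0186 to 0.0451. Each of these decreases was lost on leaving out single libraries. For Anln this happened on omitting vehicle 1, vehicle 3, IL1B 2 or IL1B 3, with adjusted p of 0.0519 to 0.0826. For Gtse1 it happened on omitting vehicle 1, IL1B 2 or IL1B 3 (0.0536 to 0.112). Ckap2 lost its call on omitting any of the 4 vehicle libraries, IL1B 2 or IL1B 3 (0.0512 to 0.243), and G2e3 without any 1 library other than vehicle 2 (0.0563 to 0.138). Ckap2 and Gtse1 also did not pass with DESeq2 (adjusted p = 0.0608 and 0.0532) or with the second library of both groups left out (0.145 and 0.0995). The increases of Kif23, Prc1, Gas2l3, Uhrf1, Cdkn1a and Cdkn2b passed in all 16 alternatives.

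Of 15 other E2F, DP, pocket protein and MuvB genes 1 passed, as higher (6.67%, background 7.76%). It was Lin9, a core subunit of MuvB, which rose from 53.3 ± 3.68 to 68.1 ± 6.19 CPM (1.28-fold, log2 fold change 0.35 with an SE of 0.08, edgeR adjusted p = 0.00581). Its IL1B libraries stood at 71.4, 61.0 and 72.0 CPM, all above the vehicle range of 48.0 to 55.9. The increase of Lin9 also passed in all 16 alternatives, with adjusted p up to 0.0491. Of 9 genes of CDK phosphorylation and checkpoint control 1 passed, as higher (11.1%, background 7.76%). This was Wee1, whose kinase inhibits CDK1, which rose from 65.1 ± 1.42 to 75.9 ± 2.53 CPM (1.16-fold, edgeR adjusted p = 0.0403). It did not pass with total-count scaling (adjusted p = 0.0882), with DESeq2 (0.109), or without any 1 library other than vehicle 2 (0.0554 to 0.183).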

How the data were processed

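Gene counts were deposited as 1 table of whole-number counts per gene symbol for 7 libraries. The submitters' processing notes name STAR, RSEM, HOMER and DESeq2 among their tools, without roles, and the build mm10, while a strand setting and count filters are unstated in the sources used. Of the deposited counts, no column was left unmapped. The vehicle columns match their samples by number. The IL1B columns match their group only, since their numbers differ from those in the titles, and IL1B libraries 1 to 3 are numbered as in the table.

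The counts were tested in R 4.3.3 with edgeR 4.0.16 (filterByExpr, TMM, quasi-likelihood F test, Benjamini-Hochberg adjustment over all tested genes, threshold 0.05), with total-count scaling beside it. CPM were computed from these counts and divided by annotated exon length (GENCODE on GRCm38) for levels. Alternatives were other scalings and filters, DESeq2 1.42.0, limma 3.58.1 (voom), leaving out libraries and, added after the data were seen, a block by column number. Near copies are transcripts sharing at least 30% of a gene's longest transcript at 95% identity (blastn 2.17.0). Replicates of 1 group differed by more than sampling noise. Chi-square per degree of freedom was 2.786 to 4.677 in pairs with the second library of a group and 1.506 to 1.715 in the others. The naming rule took, library by library, members past the threshold and the 4 of each class with the smallest p, other members in brief, and up to 3 called genes of each other list, with Cdkn1a by name. The other CDK inhibitors, and 4 further G2/M genes, were named after their values were seen. The members and lists were chosen with earlier results of these data known.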

Additional observations from a re-analysis of the deposited data

Results flagged for a closer look

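In 63 groups of values of the 4 vehicle libraries, 4 had a highest or lowest library that stood apart from the other 3 by Dixon's criterion for 4 values, where about 3.2 are expected by chance (1 in 20). E2f1 stood at 106.5 CPM in vehicle library 3, against 105.9 to 106 in the others, a tight group in which the gap is small. Mcm4 stood at 206.3 CPM in vehicle library 1, against 215.9 to 217.7. Cenpa stood at 157.1 CPM in vehicle library 2, against 142.1 to 143.9. In the same library the Spearman rho across all tested genes between a gene's deviation from the vehicle mean and its exon length was -0.503, where vehicle libraries 1, 3 and 4 had 0.1967 to 0.2802. This is a description across genes, which do not replicate each other. The groups of 3 IL1B libraries are too small for this criterion.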

How the results depend on the processing

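Cdkn2c kept its call in all 16 alternatives, Ccne2 and Bub1 in 11 and Ccnd2 in 10, and no named result turned its direction past the threshold. With total-count scaling 5 members fell, and the medians were -0.0458 (S phase), -0.0595 (G2/M) and -0.1322 (the 11 G1 cyclin, kinase, E2F, RB and inhibitor genes). With upper-quartile scaling 5 members fell, with medians of -0.0526 (G2/M) and -0.125 (the 11 G1 genes). Without the second library of each group 676 of all tested genes were lower, against 406, and the median of the 11 genes was -0.0755. Leaving out 1 library gave 0 to 1 members higher and 1 to 5 lower, 252 to 589 of all tested genes lower, an S phase median of -0.0287 to 0.018 and a median of the 11 genes of -0.1419 to -0.0944. The cause of these shifts was not tested. Increases made up 70.5% of all calls with TMM and 60.3% with total-count scaling. A replicate block by the numbers of the table's columns, added after the data were seen, left 0 members higher and 1 lower (Cdkn2c, adjusted p = 0.0354), with 794 of all tested genes higher and 250 lower. These numbers are not those of the IL1B titles, and no block by title numbers was run. The block by column numbers is counted among the 16 alternatives. Same-numbered vehicle and IL1B libraries did not deviate together throughout (r across genes 0.135, 0.02 and -0.016), and not every library correlated best with its own number. The title numbers, if the columns follow their order, would pair vehicle 3 with IL1B 2 (r 0.074) and vehicle 4 with IL1B 3 (0.051). With the first libraries of both groups (0.135) these pairs had the highest r, and the next was 0.03. A pairing by title numbers was not tested. With 3 against 4 libraries the median half-width of a 95% interval was 0.13 on the log2 scale for the members and 0.20 for all tested genes.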
